A study of Mus musculus with 1019 samples.

Results

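The proteasome subunit genes were followed in 1019 single CD4+ T cells sorted for CD25 from mouse spleen and visceral adipose tissue (VAT). A gene was included when its symbol in the table began with Psma, Psmb, Psmc, Psmd, Psme, Psmf or Psmg and a number, which 50 rows did. Psmb8 and Psmb9, the inducible catalytic subunits encoded within the MHC, were left out by the same rule, so 48 of the 23725 genes in the table were members. Of these, 46 had at least 1 UMI (unique molecular identifier, the tag that marks 1 captured mRNA molecule) and 38 had 50 or more over the 3 libraries. Psma8, the testis form of an alpha subunit, and Psme2b, a near-identical copy of Psme2, had 0 UMIs in every library. Psmc3ip matched the pattern by its symbol but encodes a partner of a meiotic recombinase rather than a proteasome subunit, and it was kept in the total only (2, 4 and 4 UMIs).

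The 26S proteasome degrades proteins marked with ubiquitin chains. Its 20S core is a barrel of stacked rings: outer rings of alpha subunits form the gate, and inner rings of beta subunits hold the proteolytic sites. The 19S cap consists of a base, whose ATPases unfold substrates, and a lid, which removes ubiquitin chains. Other activators can replace the cap, among them PA28 alpha and beta, encoded by Psme1 and Psme2, which are induced by interferon gamma and favour the release of peptides that MHC class I can present. The same cytokine induces Psmb8, Psmb9 and Psmb10, which replace Psmb5, Psmb6 and Psmb7 in new cores to form the immunoproteasome. Lymphocytes carry immunoproteasome subunits constitutively.

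All cells came from male B6 mice aged 20 months and were sorted as live (DAPI-) TCRb+ CD4+ CD25+ cells, a gate that enriches regulatory T cells (Tregs) without selecting FoxP3 itself. The spleen gave 1 library, with 36.8% of the 1019 cells, and epididymal VAT gave library 2 with 32.4% and library 3 with 30.8%, numbered as in the labels. Spleens were dissociated mechanically and VAT with collagenase and dispase, so tissue and digestion cannot be told apart in any difference below. The label fields of the spleen cells disagreed about tissue and replicate number, and the source name placed them. The titles gave the spleen library and VAT library 2 the same replicate number, while another field numbered the spleen cells differently. No label named an animal, so each library counted as 1 sample and no significance test was made. The series title also names FoxP3- conventional CD4+ cells, but no cell label separates them. Totals were 573622 UMIs in spleen, 556099 in VAT library 2 and 548770 in VAT library 3, with medians of 1423, 1565 and 1611 UMIs per cell. Of 1016 distinct barcodes, 3 occurred in 2 libraries.

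The sort genes were detected in every library: Il2ra, which encodes CD25, had 453.3, 1104.1 and 1011.4 counts per 1000000 UMIs of the library (CPM) and Cd4 had 697.3, 672.5 and 424.6 CPM in spleen, VAT library 2 and VAT library 3, the order of all triplets below. Foxp3, which defines Tregs and was not in the gate, had 385.3, 472.9 and 344.4 CPM. Of the markers of other cells, the 4 erythroid genes in the table summed to 202.2, 1.80 and 1.82 CPM, and the 6 stromal and endothelial genes to 30, 1 and 4 UMIs, nearly all Pecam1 in spleen, with Col1a2, Dcn and Cdh5 at 0. The erythroid list stood higher in spleen, and of the stromal and endothelial list Pecam1 alone did (29, 1 and 2 UMIs). The 5 B cell genes in the table summed to 1, 0 and 1 UMIs, with Cd79a and Ly6d among those at 0 in every library, and the 10 myeloid genes to 9, 7 and 5, with Cd14, C1qa and C1qb at 0. CD8 and NK genes summed to 33, 36 and 36 UMIs, nearly all Cd8b1, with Cd8a, Ncr1, Klrb1c and Eomes at 0. The 6 adipocyte genes summed to 0, 3 and 3 UMIs, with Adipoq, Plin1, Cfd and Retn at 0.

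Proteasome mRNA was a smaller part of the transcriptome in both VAT libraries than in spleen. The members summed to 3400 UMIs in spleen, 2260 in VAT library 2 and 2037 in VAT library 3, which is 0.593%, 0.406% and 0.371% of each library. The share in VAT over that in spleen was 0.686 (0.650 to 0.723) for library 2 and 0.626 (0.592 to 0.662) for library 3. Ranges in parentheses, here and later, are exact 95% intervals of counting error, which leave out variation between animals. Members' UMIs clustered in cells: the variance of their sum per cell was 1.41 to 1.92 times the mean after every cell had been thinned to 800 UMIs, so the intervals are too narrow. The difference was uneven over the particle, with the largest difference in PA28 alpha and beta, a smaller one in the core and little in the lid.

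Genes with 50 or more UMIs were sorted by size of difference: those past a size rule lay 2-fold or more from spleen, on the same side, in each VAT library. The lower side held 3 of 38 members (7.89%), Psme1, Psme2 and Psmb10, beside 4.4% of 4635 genes. No member was 2-fold or more above spleen in both, whereas 10.3% of all genes were. With spleen set against VAT library 2 alone, Psma2 and Psmc4 joined the lower side, 5 of 38 members in all, against 7.4% of genes. Counting differences of any size, 25 of 38 members (65.8%) were lower in both VAT libraries, against 40.6% of all genes, and 5 members (13.2%) were higher in both, against 41.3%. The 5 were Psma1, Psmb7, Psmc1, Psmd9 and Psmd13, with ratios of 1.41 to 1.62 in library 2 and 1.019 to 1.43 in library 3. The median log2 ratio of the 38 members was -0.34 in library 2 and -0.56 in library 3, where that of all 4635 genes was 0.04 and -0.02. Without Psme1, Psme2 and Psmb10 the medians of the other 35 members were -0.25 and -0.53. Both VAT libraries were compared with the same spleen library, so the counts in both are not independent of each other.

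The scaling of the libraries moved these counts. Leaving 85 ribosomal protein genes out of the totals shifted the median of all genes to -0.19 and -0.22, and then 29 of 38 members were lower and 4 higher in both libraries, against 52.5% and 30.9% of all genes, with Psmb7 no longer among the higher. With TMM factors 23 members were lower and 8 higher, against 36.7% and 44.5% of all genes.

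**Figure D1:**
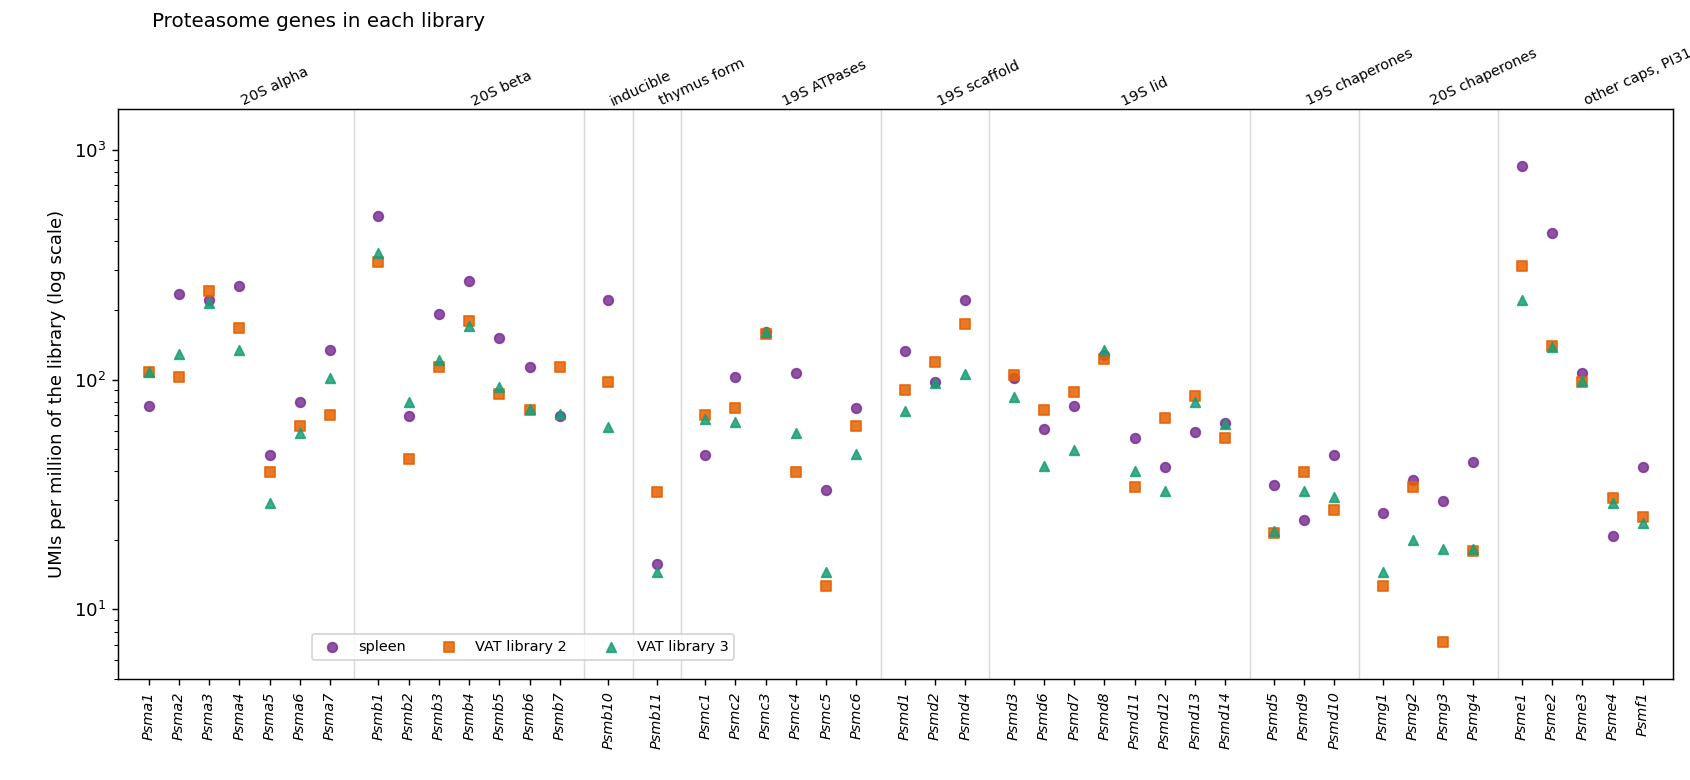
Level of each of the 45 proteasome members with a UMI, in CPM (vertical axis, log scale), ordered by place in the particle. Circles are the spleen library, squares VAT library 2 and triangles VAT library 3. Psme1, Psme2 and Psmb10 lie 2-fold or more below spleen in each VAT library. In the lid, the points of Psmd8 lie close together, while Psmd12 is at least 2-fold apart between the VAT libraries.

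PA28 alpha and beta, which form the interferon-inducible ring that opens the core, were lower in both VAT libraries. Psme1, the alpha subunit, had 845.5 CPM in spleen, 311.1 in VAT library 2 and 222.3 in VAT library 3. At these depths 1 UMI is 1.74, 1.80 and 1.82 CPM, and genes with fewer than 100 UMIs in every library are given below by their UMIs. The spleen level of Psme1 was 2.72-fold (2.28 to 3.25) that of library 2 and 3.80-fold (3.11 to 4.68) that of library 3. Both VAT libraries lay far below spleen, and library 3 lay below library 2 (ratio 0.715, 0.562 to 0.906). Psme2, the beta subunit, had 432.3, 140.3 and 138.5 CPM. Spleen exceeded library 2 by 3.08-fold (2.38 to 4.03) and library 3 by 3.12-fold (2.40 to 4.09), and the VAT libraries differed from each other by less than counting error (ratio 0.987, 0.710 to 1.37). The alpha and beta subunits assemble into 1 ring, and their UMIs stayed in a like proportion: Psme1 made up 66.2% (62.6 to 69.6), 68.9% (62.8 to 74.6) and 61.6% (54.5 to 68.4) of the pair. Together they held 21.6% of all member UMIs in spleen but 11.1% and 9.72% in VAT.

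Erythroid transcripts, higher in spleen, were carried by 82 spleen cells and by 1 cell of each VAT library. Without all of these cells, an alternative added after the data were seen, the pooled VAT share over spleen was 0.302 (0.259 to 0.353) for Psme1, 0.342 (0.274 to 0.427) for Psme2 and 0.310 (0.232 to 0.413) for Psmb10, where it was 0.316, 0.322 and 0.360 with all cells. The same 3 members were then past the size rule on the lower side, against 3.85% of all genes. RNA released by other cells can be in a droplet in which no erythroid UMI was captured, so leaving out these cells does not remove it. Its part in these differences was not tested, nor was that of the higher Pecam1 level of spleen.

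The remaining activators and the inhibitor were close to their spleen level or thinly counted. Psme3 encodes PA28 gamma, the nuclear relative of PA28 alpha and beta that interferon does not induce, and it had 61, 54 and 54 UMIs. Its ratios were 0.913 (0.621 to 1.34) and 0.925 (0.629 to 1.36), so equal levels lie within counting error, as does a ratio as low as 0.621. Set against Psme3, Psme1 made up 88.8% (85.9 to 91.3) of the 2 genes' UMIs in spleen, 76.2% (70.1 to 81.6) in library 2 and 69.3% (61.9 to 76) in library 3, with no overlap between the spleen interval and either VAT interval. This share does not depend on the library total. Psme4, which encodes the large activator PA200, had 12, 17 and 16 UMIs, ratios of 1.46 (0.658 to 3.35) and 1.39 (0.619 to 3.23), and a pooled ratio of 0.826 (0.272 to 2.77) in cells with a Foxp3 UMI. Psmf1, which encodes the inhibitor PI31, had 24, 14 and 13 UMIs, ratios of 0.602 (0.288 to 1.21) and 0.566 (0.265 to 1.16). Neither gene was counted deeply enough to place its VAT level above or below spleen.

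Psme1 and Psme2 lie on opposite strands of chromosome 14, with 5911 bp between them. In the GENCODE M21 annotation of GRCm38 (mm10), Psme1 spans chr14:55578123-55581529 on the plus strand and Psme2 spans chr14:55587441-55591113 on the minus strand. Psme1 overlaps Emc9 on the other strand, and strand use in counting is not given in the sources used here. Reads of Psme2 could also be shared with Psme2b. Psmb10 spans chr8:105935735-105938444 on the minus strand. The promoter windows of the 3 genes past the size rule are shown, a choice made by that rule alone. Other members were also lower in both VAT libraries, by less than 2-fold in at least 1 of them. Each window runs from 250 bases before to 50 after a RefSeq transcription start on GRCm38.p6, 5′ to 3′ along the gene, at chr14:55578244-55578543 (plus), chr14:55591052-55591351 (minus) and chr8:105938343-105938642 (minus). Capitals mark a match to an interferon regulatory factor (IRF) type motif.
Psme1: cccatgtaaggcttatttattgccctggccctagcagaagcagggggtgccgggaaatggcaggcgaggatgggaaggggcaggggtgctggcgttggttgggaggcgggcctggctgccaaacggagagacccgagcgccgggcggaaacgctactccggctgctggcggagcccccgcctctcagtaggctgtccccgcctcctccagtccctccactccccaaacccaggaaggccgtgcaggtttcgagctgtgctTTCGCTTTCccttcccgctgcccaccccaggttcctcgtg
Psme2: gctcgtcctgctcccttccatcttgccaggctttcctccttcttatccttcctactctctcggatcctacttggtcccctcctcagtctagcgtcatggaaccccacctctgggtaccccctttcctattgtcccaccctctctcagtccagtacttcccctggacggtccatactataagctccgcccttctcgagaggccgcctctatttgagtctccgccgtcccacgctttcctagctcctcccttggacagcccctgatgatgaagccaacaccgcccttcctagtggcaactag
Psmb10: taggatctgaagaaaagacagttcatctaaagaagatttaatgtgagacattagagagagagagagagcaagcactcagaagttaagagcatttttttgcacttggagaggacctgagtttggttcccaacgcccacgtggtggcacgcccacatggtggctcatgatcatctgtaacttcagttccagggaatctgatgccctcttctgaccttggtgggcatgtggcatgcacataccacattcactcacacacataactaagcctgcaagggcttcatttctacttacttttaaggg

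The match in the Psme1 window, TTCGCTTTC, is the reverse strand of GAAANNGAA and begins 11 bases after the start. The windows of Psme2, which has 2 overlapping RefSeq entries, and of Psmb10 held no match to it on either strand. RefSeq entries were found for 40 of the 48 members, 43 windows in all. GAAANNGAA occurred in 7 of the 43 (16.3%) and in 8.56% of all 32851 mouse windows of this length. Those 7 belonged to Psme1, Psmb3, Psmb4, Psmc2, Psmd4, Psmd9 and Psmg4. The STAT type motif TTCNNNGAA, searched on both strands as were all the motifs, occurred in 2 member windows (4.65%) against 8.30% of all. TGACNNNGC, the type bound by NRF1 and NRF2, occurred in 6 (14%) against 12.4%, and CCAAT in 14 (32.6%) against 37.4%. The member counts are small, and a match is a description of the letters, not evidence of binding.

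**Figure D2:**
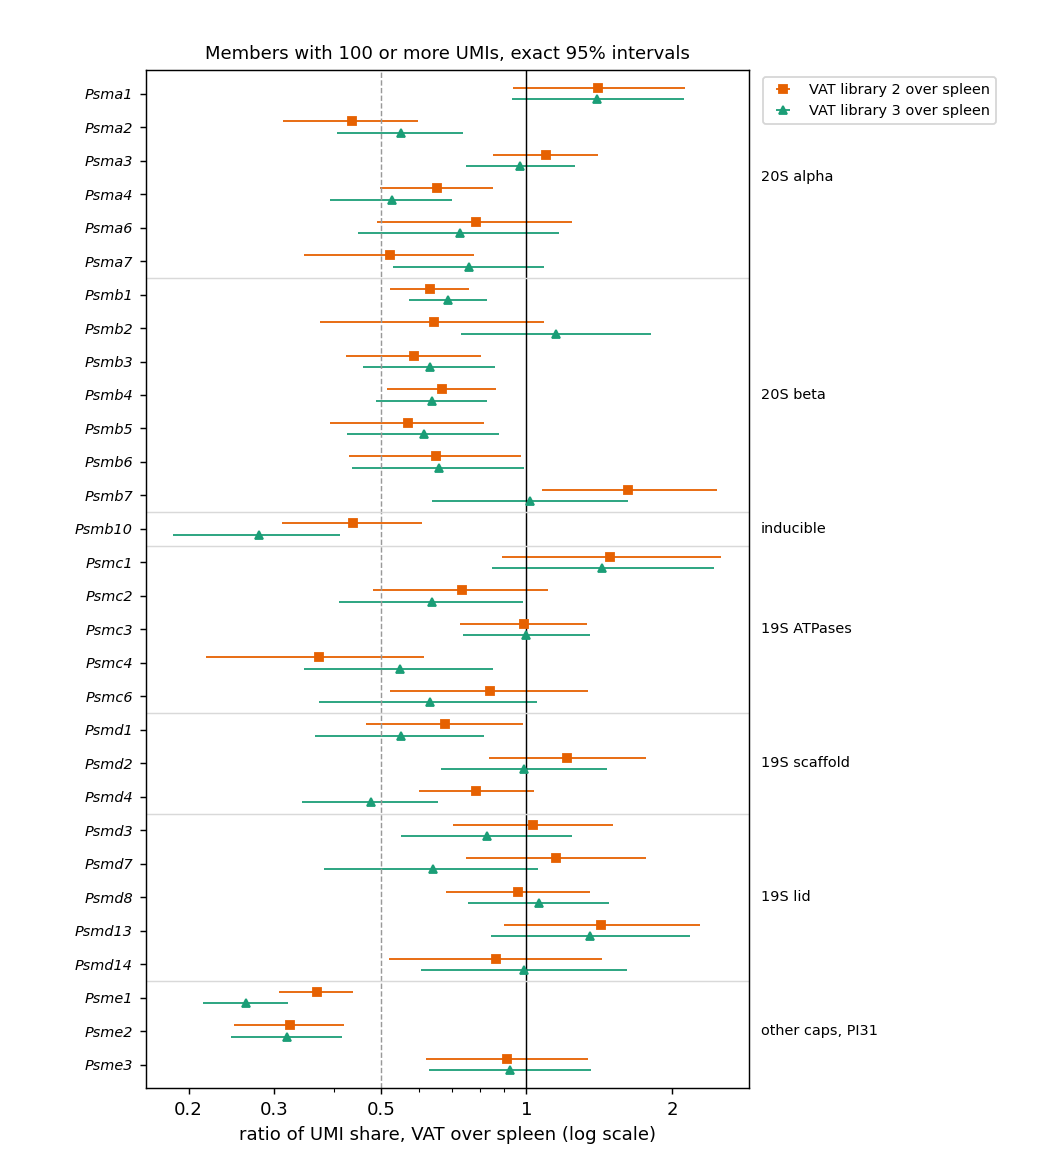
Share of UMIs in each VAT library over that in spleen (horizontal axis, log scale) for the 30 members with 100 or more UMIs. Points are ratios, bars are exact 95% intervals for counting error, the solid line marks equal shares and the dashed line a ratio of 0.5. Both intervals lie wholly below the dashed line for Psme1 and Psme2.

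Psmb10, the inducible counterpart of the trypsin-like subunit Psmb7, was the other member past the size rule. It had 221.4, 97.1 and 61.96 CPM, the last from 34 UMIs, and spleen exceeded the VAT libraries by 2.28-fold (1.65 to 3.20) and 3.57-fold (2.43 to 5.38). Psmb7 itself had 40, 63 and 39 UMIs, ratios of 1.62 (1.08 to 2.48) and 1.019 (0.639 to 1.63), of which the second is 0.887 when totals leave out ribosomal protein genes. Psmb10 made up 76% (68.8 to 82.3) of the pair's UMIs in spleen, 46.2% (36.9 to 55.6) in library 2 and 46.6% (34.8 to 58.6) in library 3. The VAT intervals overlap each other almost fully and lie below the spleen interval. In cells with a Foxp3 UMI alone, the shares were 76.2% (63.8 to 86.02), 48.7% (32.4 to 65.2) and 14.3% (3.05 to 36.3), so the VAT libraries lay further apart and the library 2 interval overlapped that of spleen. After thinning to 800 UMIs they were 73.3% (62.97 to 82.1), 56.7% (43.2 to 69.4) and 41.7% (25.5 to 59.2), again with overlap between library 2 and spleen, and Psmb10 was no longer past the size rule. In cells with a Foxp3 UMI, the pooled VAT level of Psmb10 over spleen was 0.227 (0.131 to 0.384), where it was 0.360 over all cells. The pair's percentages are shares of mRNA tags within a library, which do not depend on the library total but do depend on how well each gene's 3′ end was captured. Psmb7 overlaps Nek6 and 2 other annotated genes, and has a named pseudogene, Psmb7-ps2, so some of its reads may be shared.

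The 2 inducible subunits left out of the members were lower in VAT as well. Psmb9 had 42, 15 and 18 UMIs, ratios of 0.368 (0.190 to 0.678) and 0.448 (0.243 to 0.795), which is past the size rule. Psmb8 had 695.6, 436.97 and 415.5 CPM, ratios of 0.628 (0.533 to 0.739) and 0.597 (0.505 to 0.705). Psmb8 made up 82.1% (78.4 to 85.4), 83.5% (78.7 to 87.6) and 81.7% (76.7 to 86.1) of its pair with Psmb5, and Psmb9 made up 39.3% (29.95 to 49.2), 26.8% (15.8 to 40.3) and 30.5% (19.2 to 43.9) of its pair with Psmb6, with overlapping intervals in both pairs.

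The beta ring carries the proteolytic sites, and 5 of its 7 genes had both intervals below 1, as did 12 of the 38 members. With TMM or median-of-ratios scaling 4 genes of the ring did, without Psmb6. How many of all genes have both intervals below 1 was not counted, and the intervals are too narrow. Such counts, in this and the other sections, are therefore descriptions only. Summed, the ring made up 0.138%, 0.0937% and 0.0968% of each library's UMIs, ratios of 0.678 (0.606 to 0.758) and 0.700 (0.626 to 0.782). Psmb5, the chymotrypsin-like subunit, had 87, 48 and 51 UMIs, ratios of 0.569 (0.391 to 0.819) and 0.613 (0.425 to 0.876). Psmb6, the caspase-like subunit, had 65, 41 and 41 UMIs, ratios of 0.651 (0.429 to 0.977) and 0.659 (0.435 to 0.99). The other 4 beta subunits have no proteolytic activity of their own and complete the ring. Among them, Psmb1 had 516.02, 325.5 and 355.3 CPM, ratios of 0.631 (0.521 to 0.761) and 0.689 (0.572 to 0.828). Psmb3 had 193.5, 113.3 and 122.1 CPM, ratios of 0.585 (0.423 to 0.805) and 0.631 (0.459 to 0.862). Psmb4 had 268.5, 179.8 and 171.3 CPM, ratios of 0.670 (0.515 to 0.867) and 0.638 (0.488 to 0.830). In all 5 genes the VAT libraries lay close together and below spleen. Psmb2 went 2 ways, with 40, 25 and 44 UMIs and ratios of 0.645 (0.375 to 1.09) and 1.15 (0.732 to 1.81). Psmb5 and Psmb6 have processed pseudogenes in the annotation with which reads could be shared.

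Genes of the alpha ring, which gates the core, were lower by a similar amount in sum but differed among themselves. The ring made up 0.105%, 0.0793% and 0.0776% of UMIs, ratios of 0.754 (0.666 to 0.854) and 0.738 (0.651 to 0.837). Psma2 had 235.3, 102.5 and 129.4 CPM, ratios of 0.436 (0.314 to 0.598) and 0.550 (0.406 to 0.738), so it passed 2-fold in library 2 alone. Psma4 had 256.3, 167.2 and 134.8 CPM, ratios of 0.653 (0.498 to 0.852) and 0.526 (0.392 to 0.700). Both of its intervals, and both of Psma2, exclude 1. Psma7 had 77, 39 and 56 UMIs, ratios of 0.522 (0.346 to 0.778) and 0.760 (0.529 to 1.09). Psma6 had 46, 35 and 32 UMIs, ratios of 0.785 (0.491 to 1.25) and 0.727 (0.448 to 1.17). For these 2 genes at least 1 interval includes 1. Psma3 stayed near equality, with 221.4, 242.8 and 215.03 CPM and ratios of 1.10 (0.854 to 1.41) and 0.971 (0.749 to 1.26), although 14 of its spleen UMIs came from 1 cell. Psma1 leaned the other way, with 44, 60 and 59 UMIs and ratios of 1.41 (0.938 to 2.13) and 1.40 (0.933 to 2.12), both intervals including 1. In cells with a Foxp3 UMI the pooled VAT ratio of Psma1 was 0.882 (0.539 to 1.47), where it was 1.40 over all cells. Psma5, with 16 to 27 UMIs per library, had ratios below 1 in both. Psmb11, the thymus form of Psmb5, had 9, 18 and 8 UMIs.

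In the 19S base, the ATPase ring that unfolds substrates made up 0.0525%, 0.0419% and 0.0414% of UMIs, ratios of 0.798 (0.670 to 0.951) and 0.788 (0.661 to 0.94). Psmc4 had 61, 22 and 32 UMIs, ratios of 0.372 (0.218 to 0.615) and 0.548 (0.346 to 0.855), and was the ATPase gene with both intervals below 1, joined by Psmc2 when totals leave out ribosomal protein genes. Psmc3 was level, with 92, 88 and 88 UMIs and ratios of 0.987 (0.728 to 1.34) and 0.9998 (0.738 to 1.35). Psmc1 had 27, 39 and 37 UMIs, ratios of 1.49 (0.889 to 2.53) and 1.43 (0.849 to 2.45). The ring is built from 1 copy of each ATPase, and the library 2 ratios of its 5 genes with 100 or more UMIs ranged from 0.372 to 1.49. Psmc2 had 59, 42 and 36 UMIs, ratios of 0.734 (0.482 to 1.11) and 0.638 (0.409 to 0.982). Psmc6 had 43, 35 and 26 UMIs, ratios of 0.840 (0.522 to 1.34) and 0.632 (0.373 to 1.05), and in cells with a Foxp3 UMI its pooled ratio turned to 2.18 (0.806 to 7.37). Psmc5, with fewer than 50 UMIs in all, had 19, 7 and 8.

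The non-ATPase part of the base scaffolds the cap and binds ubiquitin, and here the VAT libraries differed from each other. Its 3 genes made up 0.0452%, 0.0383% and 0.0275% of UMIs, ratios of 0.848 (0.704 to 1.021) and 0.609 (0.495 to 0.748), and library 3 lay below library 2 (ratio 0.718, 0.579 to 0.889). Psmd4, a ubiquitin receptor, had 221.4, 174.4 and 105.7 CPM, ratios of 0.788 (0.599 to 1.03) and 0.477 (0.344 to 0.656). Psmd1, a large scaffold subunit, had 76, 50 and 40 UMIs, ratios of 0.679 (0.465 to 0.982) and 0.550 (0.365 to 0.817). With TMM scaling its library 2 interval includes 1, and in cells with a Foxp3 UMI its pooled ratio was 0.992 (0.558 to 1.82). Psmd2, the other large scaffold, had 56, 66 and 53 UMIs, ratios of 1.22 (0.839 to 1.77) and 0.989 (0.666 to 1.47). Of the 3 genes, Psmd1 and Psmd4 were lower in both VAT libraries and Psmd2 was on either side of its spleen level.

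The lid, which removes ubiquitin chains before unfolding, stood closest to its spleen level. It made up 0.0587%, 0.0631% and 0.0527% of UMIs, ratios of 1.07 (0.923 to 1.25) and 0.896 (0.763 to 1.05). When totals leave out ribosomal protein genes, the ratios are 0.913 (0.784 to 1.06) and 0.780 (0.665 to 0.916), and the second then lies wholly below 1. Of its 8 genes, 1 was higher in both VAT libraries, 2 were lower in both and 5 were split, and no gene had both intervals on 1 side of 1. Psmd14, the deubiquitinase of the lid, had 37, 31 and 35 UMIs, ratios of 0.864 (0.519 to 1.43) and 0.989 (0.605 to 1.61), and its pooled ratio of 0.926 turned to 1.43 (0.686 to 3.19) after thinning and to 1.29 (0.774 to 2.26) without cells holding an erythroid UMI. Psmd8 had 73, 68 and 74 UMIs, ratios of 0.961 (0.680 to 1.36) and 1.06 (0.756 to 1.48). Psmd3 had 58, 58 and 46 UMIs, ratios of 1.03 (0.704 to 1.51) and 0.829 (0.550 to 1.24). Equal shares lie within counting error for each of these structural and catalytic subunits. Psmd13 had 34, 47 and 44 UMIs, ratios of 1.43 (0.898 to 2.29) and 1.35 (0.845 to 2.18). Psmd7, the inactive partner of Psmd14, had 44, 49 and 27 UMIs, ratios of 1.15 (0.749 to 1.77) and 0.641 (0.382 to 1.06). Psmd12, named after its values were seen, was the single member at least 2-fold apart between the VAT libraries (24, 38 and 18 UMIs), 2.63% of the 38 against 4.34% of all genes. The remaining lid genes, Psmd6 and Psmd11, had 19 to 41 UMIs per library.

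The assembly chaperones, which are not part of the finished particle, were thinly counted. The 4 genes for core assembly, Psmg1 to Psmg4, summed to 78, 40 and 39 UMIs, ratios of 0.529 (0.352 to 0.784) and 0.523 (0.346 to 0.777), with all 4 below spleen in both libraries. Only Psmg2 among them reached 50 UMIs, so they hardly entered the counts by size. The 3 chaperones of the base, Psmd5, Psmd9 and Psmd10, summed to 61, 49 and 47 UMIs, ratios of 0.829 (0.557 to 1.23) and 0.805 (0.539 to 1.20), with Psmd9 higher and the others lower in both. The intervals of the core and base chaperones overlap.

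Within the 26S particle, the lid made up a larger part of the mRNA, and the beta ring a smaller part, in VAT library 2 than in spleen. Of the UMIs of core and cap together, the lid took 14.7% (13.3 to 16.2) in spleen, 20.0% (18.1 to 21.9) in library 2 and 17.8% (16 to 19.7) in library 3. The library 2 interval lies above that of spleen, and that of library 3 overlaps it slightly. The beta ring took 34.6% (32.6 to 36.6), 29.6% (27.5 to 31.8) and 32.7% (30.4 to 35), lower in library 2 and overlapping spleen in library 3. The alpha ring took 26.3%, 25.1% and 26.2% and the ATPases 13.1%, 13.2% and 14%, with overlapping intervals in both cases. Protein subunits occur in fixed numbers in the particle, and these shares of 3′ tags do not measure them.

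**Figure D3:**
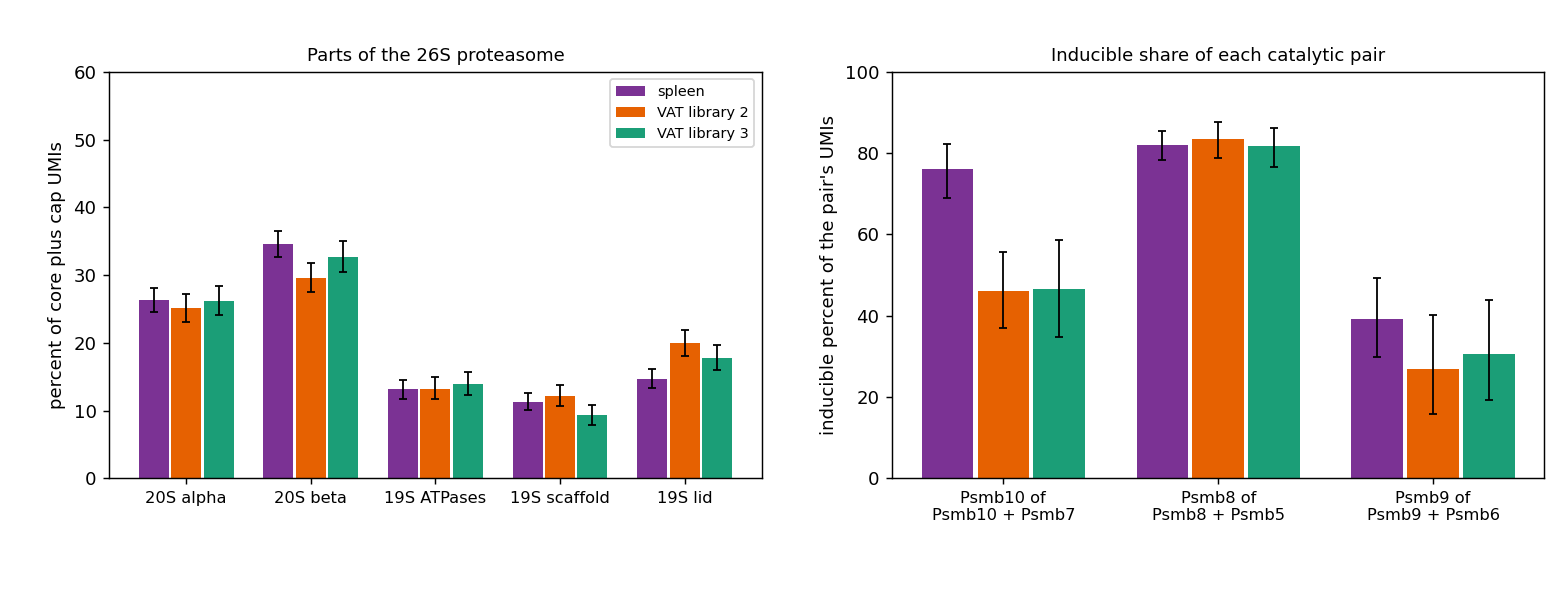
Left, percent of the UMIs of core and cap genes that fell to each section of the 26S particle, per library. Right, percent of the UMIs of each catalytic pair that came from the inducible gene. Bars start at 0, error bars are exact 95% intervals for counting error, and each colour is 1 library. Over all cells without thinning, the inducible share of the Psmb10 pair was 76% in spleen and 46.2% and 46.6% in VAT, and that of the Psmb8 pair lay between 81.7% and 83.5%.

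Per cell, proteasome mRNA was found nearly everywhere, and PA28 in fewer VAT cells. After thinning to 800 UMIs, which no cell fell short of, 95.7% (93.2 to 97.5), 93.9% (90.8 to 96.3) and 92.4% (88.8 to 95) of cells held a member UMI, and without thinning 99.2%, 98.5% and 98.4%. The median cell held 4, 3 and 3 thinned member UMIs, and the highest 15, 12 and 11. Most cells of every library held these transcripts, and both the median and the highest cell sat lower in VAT. A PA28 alpha or beta UMI was found in 53.1% (47.9 to 58.2) of thinned spleen cells, 22.1% (17.8 to 27) in library 2 and 22% (17.5 to 27) in library 3 (69.9%, 36.1% and 34.4% unthinned). Hba-a2, a haemoglobin gene that T cells do not express, was found in 7.73% of thinned spleen cells and in 0 VAT cells. With 3 counts as the limit, 0 allows up to 0.909% and 0.955%, and the exact upper limits are 1.11% and 1.17%. The share of 1 haemoglobin gene does not give the free RNA level of Psme1 or Psme2, and the part of free RNA in the PA28 shares was not tested. Psmb10 was found in 12.8% (9.59 to 16.6), 7.27% (4.72 to 10.6) and 3.18% (1.54 to 5.78) of cells, the spleen interval reaching close to the Hba-a2 share. A UMI of the core was found in 78.1% (73.6 to 82.2), 69.1% (63.8 to 74) and 72% (66.7 to 76.9) of cells, and 1 of the cap in 61.3% (56.2 to 66.3), 64.5% (59.1 to 69.7) and 58.3% (52.6 to 63.8), with overlapping intervals for the cap.

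**Figure D4:**
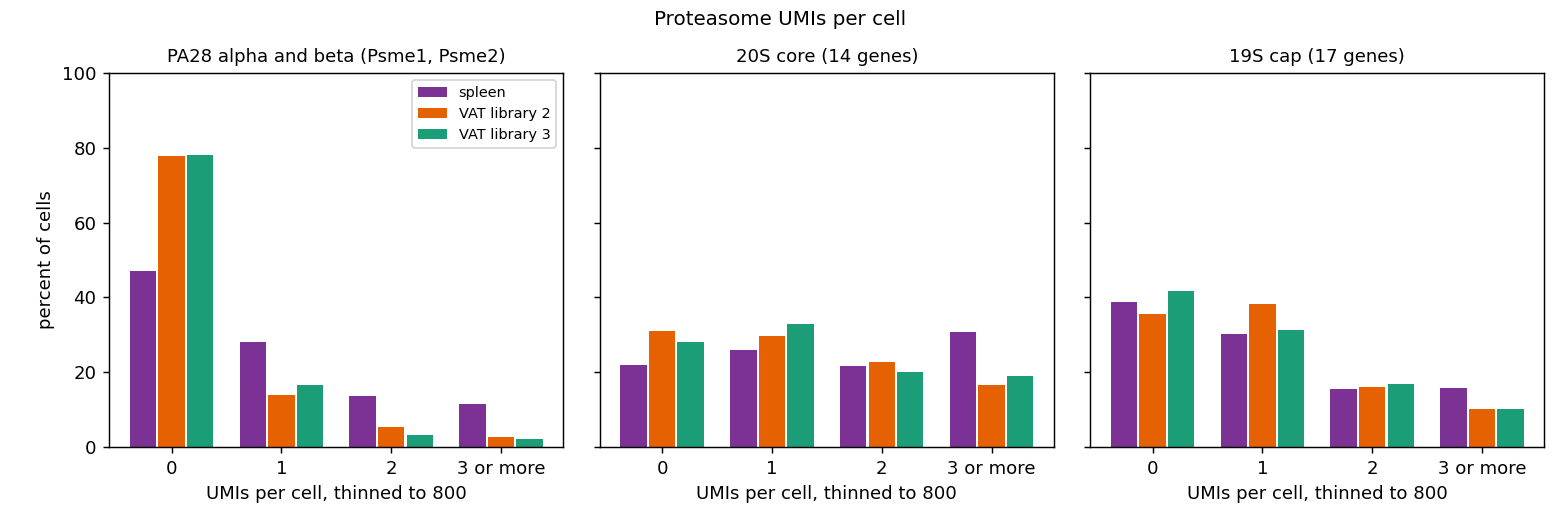
Percent of cells (vertical axis) with 0, 1, 2 or 3 or more UMIs (horizontal axis) of PA28 alpha and beta, of the 14 core genes and of the 17 cap genes, each cell thinned to 800 UMIs. Colours are libraries. PA28 was at 0 in most VAT cells and in fewer spleen cells. The cap bars differed less but were not equal. Cells with 2 or more cap UMIs made up 31.2% in spleen, 26.4% in VAT library 2 and 27.1% in VAT library 3.

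Within each library, cells with and without a Foxp3 UMI had similar shares of UMIs in all members summed. The members made up 0.595% and 0.591% of UMIs in spleen cells with and without Foxp3 (130 of them with it), a ratio of 1.006 (0.937 to 1.08). In library 2 they made up 0.401% and 0.410%, a ratio of 0.978 (0.898 to 1.06), and in library 3 0.367% and 0.373%, a ratio of 0.982 (0.894 to 1.08). For Psme1, Psme2 and Psmb10 together, the library 2 cells with a Foxp3 UMI stood lower, at 0.0460% against 0.0609%, a ratio of 0.755 (0.590 to 0.961). The same ratio was 1.12 (0.971 to 1.29) in spleen and 0.978 (0.734 to 1.30) in library 3, both intervals including 1. Klrg1 marks differentiated VAT Tregs, and was chosen after values were seen. In VAT library 3 the 280 cells with a Klrg1 UMI had 0.358% of UMIs in members and the 34 without it 0.498%, a ratio of 0.719 (0.630 to 0.824). In library 2 the same split, with 53 cells lacking a Klrg1 UMI, gave 0.402% and 0.430%, a ratio of 0.935 (0.834 to 1.05). The Klrg1 difference was thus not seen at that size in both libraries. Cells with a Klrg1 UMI also had more UMIs in all in both VAT libraries, with medians of 1628.5 and 1371.5 in library 3 and 1583 and 1448 in library 2. In spleen, where 12 cells held a Klrg1 UMI, the ratio was 0.874 (0.708 to 1.07). Cells were also split by a Tnfrsf9 UMI, held by 61, 37 and 17 cells, which gave ratios of 1.11 (1.016 to 1.21), 1.12 (0.997 to 1.27) and 1.10 (0.924 to 1.30). Cells with a Tnfrsf9 UMI had more UMIs in all in every library, with medians of 2011 and 1542 in library 2.

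Other genes of the pathway lay on both sides of spleen about as often as genes in general. Of 32 listed ubiquitin and proteasome partners 28 were in the table, and 21 had 50 or more UMIs: 9 were higher in both VAT libraries, 9 lower and 3 split, where 41.3% of all genes were higher and 40.6% lower. No partner gene was past the size rule on the lower side, against 4.4% of all genes. The higher side held 2 of the 21, against 10.3% of all genes. Among these, Zfand5, which encodes a protein that stimulates the 26S proteasome, had 11, 34 and 35 UMIs, ratios of 3.19 (1.58 to 6.98) and 3.33 (1.65 to 7.26). Rps27a, which encodes ubiquitin fused to a ribosomal protein, was lower instead. It had 3962.5, 1927.7 and 2106.5 CPM, ratios of 0.486 (0.452 to 0.523) and 0.532 (0.495 to 0.571). Uba1, the enzyme that activates ubiquitin, had 312.1, 512.5 and 390.0 CPM, ratios of 1.64 (1.36 to 1.99) and 1.25 (1.020 to 1.53).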

How the data were processed

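Sorted single cells were profiled by inDrops, in which oligo dT beads capture the 3′ end of mRNA in droplets. Per the submitters' processing notes, TopHat2 and SAMtools were used with mouse build mm10, and the deposited table holds raw UMI counts per gene and cell. Versions, gene annotation, cell filter and doublet removal are not given in the sources used here. All 1019 columns matched a sample by title, and the source name gave the tissue. The label field for UMIs per cell exceeded the table's sum by 4 to 75 (median 24). A further table of label values was not used.

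UMIs were summed per library and divided by the library total (CPM per 1000000). Ratios of shares have exact conditional binomial (Clopper-Pearson) 95% intervals, computed with Python 3.11.15, pandas 2.3.3 and scipy 1.17.1. The size rule adds 0.5 to each count, as do log2 ratios. Cells were thinned without replacement to 800 UMIs (seed 0), the shallowest cell having 819. The limit that 0 UMIs allow, taken as 3 counts, is 5.23, 5.39 and 5.47 CPM in the 3 libraries. No doublet caller was run. Scripts were tested on simulated data. TMM factors came from edgeR 4.0.16.

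The members and lists were chosen with earlier results of these data known. Values in every library are given for members with 100 or more UMIs, members past the size rule, Psmb10, the PA28 genes, Psme4 and Psmf1. Of the partner genes, those past the size rule and the 4 with the most UMIs are named, except some items that are not reported here. Alternatives changed the scaling, the cells used, the UMI minimum, the fold and the VAT library.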

Additional observations from a re-analysis of the deposited data

How the results depend on the processing

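Over both VAT libraries pooled, the members' share over that in spleen was 0.656, and it kept its direction under all 11 alternatives, 1 of them added after the data were seen. No paired analysis was possible because only VAT library 2 shares a replicate number with the spleen library, which leaves fewer than 2 pairs, and no animal is named. When totals leave out ribosomal protein genes, the pooled ratio is 0.564 for all members, 0.642 for the alpha ring, 0.592 for the beta ring, 0.682 for the ATPases, 0.848 for the lid and 0.332 for the alternative caps with the inhibitor, where these were 0.746, 0.689, 0.793, 0.986 and 0.386 for the 5 sections. The lid turned above 1 under 6 other alternatives, VAT library 2 alone among them, up to 1.08 after thinning. In cells with a Foxp3 UMI, Psmb10 had a ratio of 0.227 (0.360 over all cells), the base scaffold 0.947 (0.730), and the Psmb10 share of its pair in VAT library 3 was 14.3% (46.6%). After thinning, that share in VAT library 2 was 56.7% (46.2%). Leaving out either VAT library gave 0.626 to 0.686 for all members and 0.609 to 0.848 for the base scaffold. At least 2-fold lower were 4 of 38 members in library 3 alone (8.82% of all genes) and 5 in library 2 alone (7.4%).

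The count of members at least 2-fold lower, 3 of 38 in the report, was 5 of 38 with ribosomal protein genes left out (7.29% of all genes). It was 5 in cells with a Foxp3 UMI (4.08%) and 5 with a minimum of 20 UMIs (6.45%). How many members were eligible under those settings is not given here. With a minimum of 1 UMI it was 5 of 46 (14.4%), a share below that of all genes. At 1.5-fold it was 11 of 38 (12.8%). Psme1, Psme2 and Psmb10 were among the lower members each time, but after thinning Psme1 and Psme2 alone passed. No member was at least 2-fold higher under any of these. Without thinning, 99.2%, 98.5% and 98.4% of cells held a member UMI and 69.9%, 36.1% and 34.4% a PA28 UMI. For the 32 named members, each under 11 alternatives, 12 pooled ratios moved outside the interval of the value over all cells and 340 stayed within it. The cause of these shifts was not tested. Depth limits what can be said of members with fewer than 50 UMIs, and 1 spleen library leaves the variation between animals unmeasured.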
